A study of Mus musculus with 6 samples.

Results

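Nuclear-encoded subunits of mitochondrial complex I were followed in the hippocampus of young (3M) and aging (22M) mice. The members were taken by name: every gene of the deposited transcript table whose symbol starts with Ndufa, Ndufb, Ndufc, Ndufs, Ndufv or Ndufab was kept, and the Ndufaf assembly factors were left out. This gave 38 of the 13321 genes in the table, and all 38 were among the 13041 genes tested. Of these, 36 belong to complex I proper. The other 2, Ndufa4 and Ndufa4l2, carry the name for historical reasons, since Ndufa4 is a subunit of complex IV and Ndufa4l2 is its paralog. The genes Ndufb1, Ndufb4b and Ndufb4c were not analysed here.

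The study sequenced polyadenylated RNA of whole hippocampus from male C57 BL/6 mice of genotype WT, with 3 libraries at 3 months (J11, J13 and J15) and 3 libraries at 22 months (72, 76 and 78). The labels name no transgene and no agent for either age. The labels do not state that each library came from a separate mouse, so the tests rest on the spread among these libraries, which may be technical. Expression was given as FPKM (fragments scaled to transcript length and to the mapped total of a library), summed over the transcripts of each gene.

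Complex I is the entry point of the respiratory chain. Its matrix arm takes electrons from NADH at the tip (the N module) and passes them along iron-sulfur clusters to ubiquinone at the base (the Q module), and its membrane arm pumps protons. The core of the membrane arm is encoded by mitochondrial DNA (the mt-Nd genes), whereas the core of the matrix arm and all accessory subunits are encoded in the nucleus, so both genomes must supply parts of one enzyme. In neurons the complex feeds the ATP supply of synapses, and it is a known source of reactive oxygen species.

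The 38 genes had a lower summed level in the 22M libraries. The summed FPKM was 3217 in J11, 3284 in J13 and 2780 in J15, against 2532 in 72, 2364 in 76 and 2235 in 78. All 3 22M libraries lay below all 3 3M libraries, and J15 was the 3M library nearest to them. The mean sum was 3094 ± 274 (SD, n = 3) in 3M and 2377 ± 149 (SD, n = 3) in 22M, which is 76.8% of the 3M level. Over all genes tested the sum in 22M was 93.9% of that in 3M. Because these are bulk samples, fewer cells of a type and less RNA per cell cannot be told apart.

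**Figure D1:**
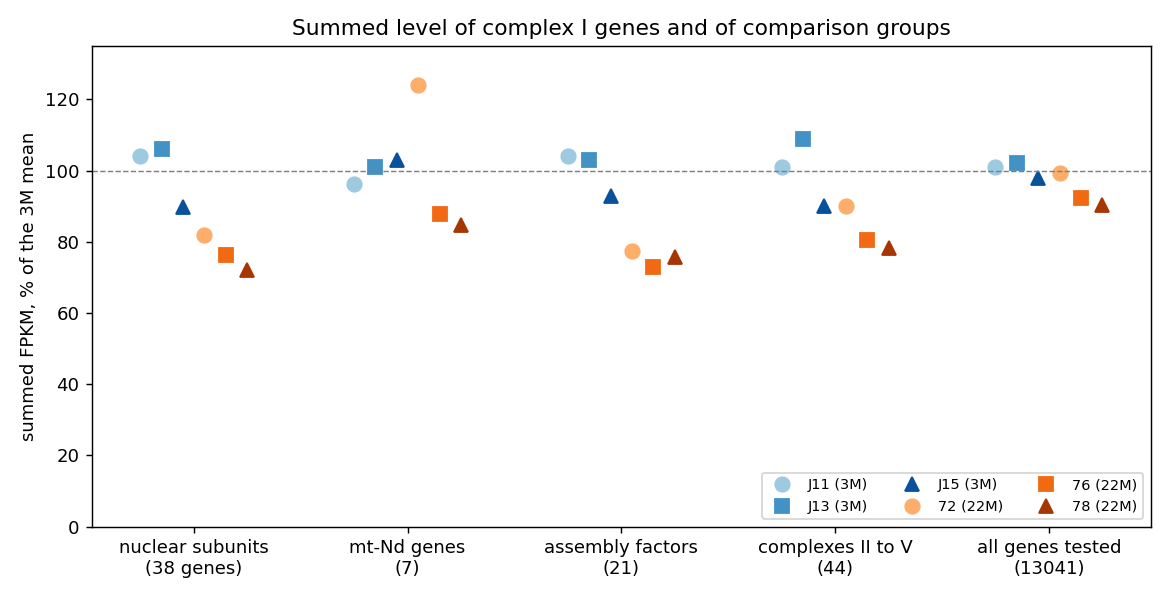
Summed FPKM of each group of genes in each library, as a percent of the mean of the 3 3M libraries (points are libraries, blue 3M, orange 22M). The 38 nuclear subunit genes lie between 72.2% and 81.8% in 22M and between 89.9% and 106% in 3M, whereas the 7 mt-Nd genes overlap between the ages.

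Gene by gene, the shift was small and shared. A mean log2 value lower in 22M was found for 38 of 38 members, against 56% of all genes tested. This count was 37 with median-of-ratios scaling, 36 with quantile normalization and 35 once length and GC content were corrected for. The median log2 fold change of the members (22M minus 3M, on the log2(FPKM + 0.5) scale) was -0.44, against -0.05 for all genes, and the members ranged from -0.95 to -0.04. In 31 members the 3 22M values all lay below the 3 3M values, against 21.1% of all genes. For each of these 31 the exact two-sided permutation test gave p = 0.1, the smallest value that 3 against 3 libraries allow. At the thresholds the study states, an unadjusted P under 0.05 and a change beyond 1.5-fold, 5 members were lower (4.22% of all genes) and 0 were higher (4.08% of all genes). With Benjamini-Hochberg adjustment over all genes in limma, 2 members fell (1.21% of all genes) and 0 rose (0.92% of all genes). Unadjusted p was under 0.05 for 30 members, all of them lower, against 16.4% of all genes lower and 10.6% higher by the same rule.

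Both calls were sensitive to single libraries. Without J11, J13, 72, 76 or 78 in turn, 0 members fell in limma (0.0153% to 0.0997% of all genes in those fits). Between 24 and 29 members were then lower at an unadjusted p under 0.05 (11.6% to 14.2% of all genes). The 2 called members, Ndufb5 and Ndufa7, had log2 fold changes of -0.82 to -0.67 and -0.54 to -0.45 in those fits. Without J15, 11 members fell, against 2.8% of all genes in that fit.

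**Figure D2:**
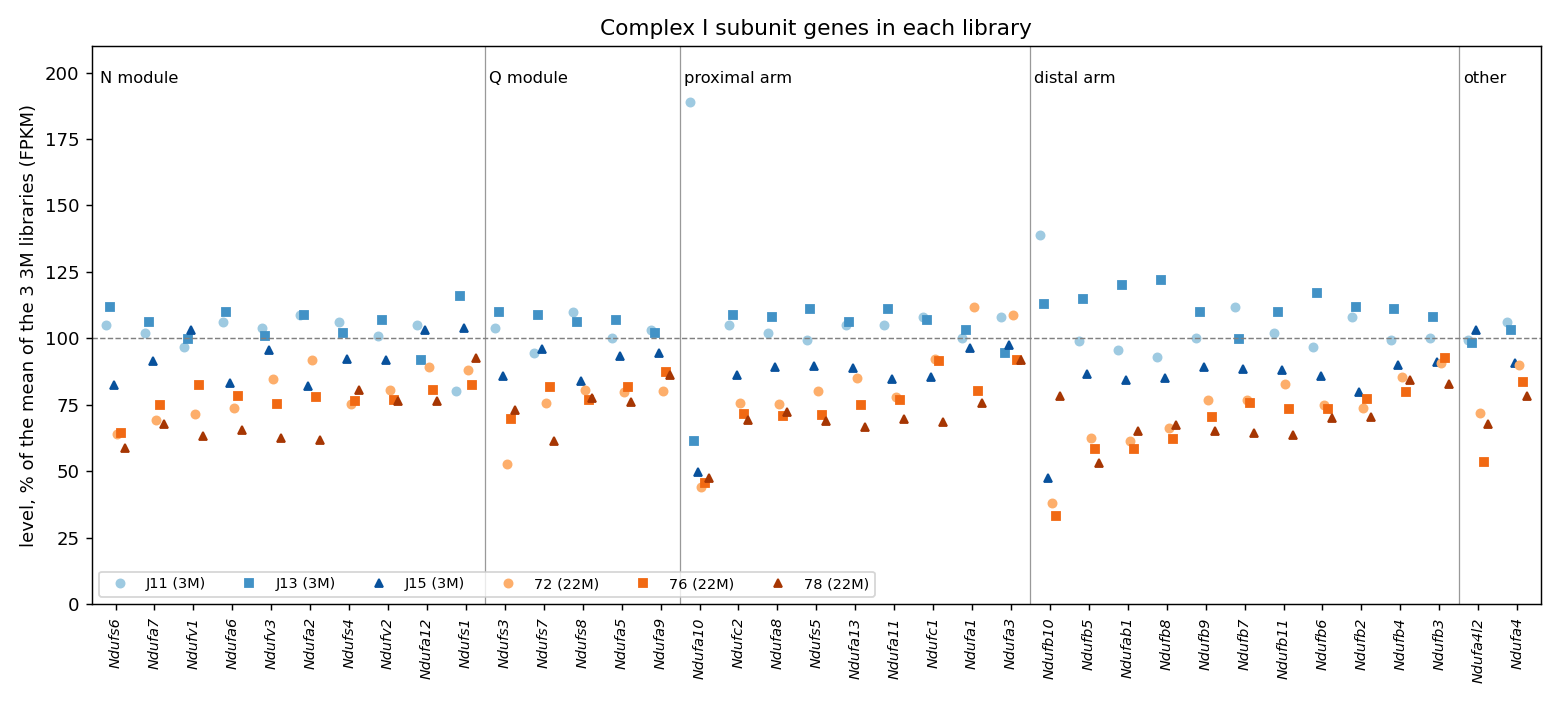
FPKM of the members in each library, as a percent of the mean of its 3 3M values (points are libraries, blue 3M, orange 22M), ordered within each part of the complex by fold change, with Ndufa4 and Ndufa4l2 under "other". Of the members, 37 are drawn. The 22M points lie below the 3M points in 30 of them, against 21.1% of all genes tested. After the length and GC correction (not drawn here) this held for 13 of all 38 members, against 18.4% of all genes. Ndufa10 and Ndufb10 show single libraries far from the rest of their age.

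The 2 members that fell sit at opposite ends of the enzyme. Ndufb5 (ENSMUSG00000027673.12, chr3:32736990-32751566, plus strand, GRCm38) encodes an accessory subunit of the distal membrane arm. Its level was 53.3 FPKM in J11, 61.7 in J13 and 46.6 in J15, and 33.6 in 72, 31.5 in 76 and 28.6 in 78. The ages did not overlap, with means of 53.9 ± 7.53 and 31.2 ± 2.5 (SD, n = 3 each). The log2 fold change of Ndufb5 was -0.77 ± 0.122 (SE), with an adjusted p of 0.0461 in limma. After the length and GC correction it was -0.57, with an adjusted p of 0.076. The most abundant Ndufb5 transcript shares 216 of its 1079 exonic bases with the opposite-strand gene Mrpl47, and whether the quantification used strand is not given in the sources used here. Counting all members, 16 share exonic bases with another annotated gene, and for 9 of them that gene is in the table, so part of their reads may be uncertain.

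Ndufa7 (ENSMUSG00000041881.12, chr17:33824572-33838317, plus strand, GRCm38) encodes an accessory subunit of the N module. Its level was 92.8 FPKM in J11, 96.2 in J13 and 82.8 in J15, whereas 72 had 62.9, 76 had 68.0 and 78 had 61.6. No 22M value reached the lowest 3M value, and the spread within each age was narrow (90.6 ± 6.99 and 64.2 ± 3.4, SD, n = 3 each). The log2 fold change was -0.49 ± 0.0875 (SE), with an adjusted p of 0.0495 in limma. After the length and GC correction it was -0.19, with an adjusted p of 0.413.

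In the N module, which oxidises NADH, all 10 genes had a lower mean in 22M (56% of all genes), with a median log2 fold change of -0.41. Ndufa7 was the 1 that passed the test (1.21% of all genes fell). The summed FPKM of the module was 789, 798 and 706 in J11, J13 and J15 and 613, 588 and 531 in 72, 76 and 78, so the ages did not overlap. Ndufs6, a zinc-binding subunit needed for the last steps of N module attachment, had 61.1, 65.5 and 48.1 FPKM in 3M and 37.3, 37.6 and 34.2 FPKM in 22M. The ages were separate, and the log2 fold change of -0.66 ± 0.127 (SE) was past the study's thresholds but not the adjusted p (0.0529). After the length and GC correction it was -0.35 (adjusted p = 0.177), with the ages still separate.

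The core subunits of this module gave unequal differences. Ndufv1, which holds the flavin that accepts electrons from NADH, had 23.3, 24.0 and 24.8 FPKM in J11, J13 and J15, against 17.2, 19.8 and 15.2 FPKM in 72, 76 and 78. Its 3M values were nearly equal, and its log2 fold change was -0.46 ± 0.112 (SE, adjusted p = 0.0704 in limma). After the length and GC correction it was -0.22 (adjusted p = 0.304) and the ages overlapped. Ndufv2, an iron-sulfur partner of Ndufv1, had 91.5, 96.7 and 83.2 FPKM in 3M and 73.0, 69.7 and 69.3 FPKM in 22M. As deposited, the ages were separate in Ndufv2 as in Ndufv1. The log2 fold change of Ndufv2 was -0.35 with an adjusted p of 0.0652. After the correction it was -0.22 (adjusted p = 0.189), with the ages still separate. Ndufs1, the largest subunit of the complex and a carrier of iron-sulfur clusters, had 28.6, 41.5 and 37.0 FPKM in 3M and 31.4, 29.4 and 33.1 FPKM in 22M. In Ndufs1 the 3M library J11 was the lowest of all 6, and the log2 fold change was -0.17 ± 0.143 (SE, adjusted p = 0.473). The other 5 genes of the module were Ndufa2, Ndufa6, Ndufa12, Ndufs4 and Ndufv3. Their log2 fold changes ran from -0.45 to -0.28, and 4 of them had separate ages (21.1% of all genes), the exception being Ndufa2. Ndufs4, whose loss in mice is used as a model of Leigh syndrome, was among the 4.

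In the Q module, which reduces ubiquinone, all 6 genes had separate ages (21.1% of all genes). None passed the adjusted test (1.21% of all genes fell). In limma 6 of 6 had an unadjusted p under 0.05 (16.4% of all genes were lower by that rule). Ndufs3, a core subunit around which the module is built, had 64.0, 67.8 and 52.8 FPKM in J11, J13 and J15, against 32.5, 42.9 and 44.9 FPKM in 72, 76 and 78. The lowest value was in 72, and the log2 fold change of -0.62 ± 0.154 (SE) passed the study's thresholds with an adjusted p of 0.0731. After the correction it was -0.35 (adjusted p = 0.326) and the ages overlapped. The correction left 1 of the 6 genes of this module with separate ages (18.4% of all genes). Ndufs7, which lines the pocket where ubiquinone binds, had 77.8, 90.0 and 78.9 FPKM in 3M and 62.3, 67.2 and 50.4 FPKM in 22M. Library 78 was the lowest, and the log2 fold change was -0.46 with an adjusted p of 0.0849. After the correction it was -0.1 (adjusted p = 0.582) and the ages overlapped. Ndufs8, which carries iron-sulfur clusters, had 88.2, 84.7 and 67.2 FPKM in 3M and 64.7, 61.4 and 62.0 FPKM in 22M. The highest 22M value lay just under J15, and the log2 fold change was -0.34 (adjusted p = 0.125). After the correction it was -0.02 (adjusted p = 0.944) and the ages overlapped. The accessory genes Ndufa5 and Ndufa9 had log2 fold changes of -0.33 and -0.24. Taking the 7 core genes of both modules together, the median log2 fold change was -0.35, against -0.44 for all members.

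In the proximal membrane arm, around the mitochondrially encoded ND1 and ND2, all 9 genes had a lower mean in 22M (56% of all genes). Their median log2 fold change was -0.41. In limma 0 passed the adjusted test (1.21% of all genes fell). At an unadjusted p under 0.05, 5 were lower (16.4% of all genes). The summed FPKM was 966, 929 and 813 in J11, J13 and J15 and 813, 699 and 674 in 72, 76 and 78, so that 72 equalled J15. Here lay the member with the smallest difference. Ndufa3, a small single-helix membrane subunit, had the highest mean of all members (195 FPKM). It had 214, 187 and 193 FPKM in 3M and 215, 182 and 182 FPKM in 22M. The ages overlapped fully, and the log2 fold change was -0.04 ± 0.0981 (SE, adjusted p = 0.823). Its sign turned under median-of-ratios scaling (0.01), quantile normalization (0.14) and the length and GC correction (0.2). In limma after that correction the unadjusted p was 0.0379 and the adjusted p 0.239.

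Ndufa10, a subunit with a nucleoside kinase-like fold, lay at the other extreme of this arm. It had 65.9 FPKM in J11 but 21.4 in J13 and 17.4 in J15, and 15.4, 15.9 and 16.6 FPKM in 72, 76 and 78. J11 alone set the size of its log2 fold change, which was -0.85 ± 0.461 (SE, adjusted p = 0.283) with all libraries and -0.27 (adjusted p = 0.254) without J11. The table held 1 of the 2 annotated coding transcripts of Ndufa10. The other 7 genes of the arm, Ndufa1, Ndufa8, Ndufa11, Ndufa13, Ndufc1, Ndufc2 and Ndufs5, had log2 fold changes from -0.46 to -0.18. Separate ages were found for 5 of them (21.1% of all genes). Ndufa1 and Ndufc1 were the exceptions. For Ndufa1, library 72 had the highest value of all 6 (174 FPKM, against 149 to 160 in 3M).

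The distal membrane arm, around ND4 and ND5, showed the lowest share of the 3M level among the 4 parts of the complex. Its summed FPKM was 850, 926 and 721 in J11, J13 and J15 and 631, 597 and 579 in 72, 76 and 78. The 22M mean was 72.4% of the 3M mean, against 75.5% in the N module, 77.0% in the Q module and 80.7% in the proximal arm, and these differences between parts were not tested. All 11 genes had a lower mean (56% of all genes), 9 had separate ages (21.1%), and Ndufb5 fell (1.21%). Ndufab1, the mitochondrial acyl carrier protein, which also serves fatty acid and lipoic acid synthesis outside complex I, had 32.9, 41.4 and 29.0 FPKM in 3M and 21.1, 20.1 and 22.5 FPKM in 22M. Its ages were separate, with a log2 fold change of -0.67 ± 0.139 (SE, adjusted p = 0.0578), and after the length and GC correction it was -0.54 (adjusted p = 0.129). Ndufb8, often used as a marker of assembled complex I, had 73.8, 97.0 and 67.5 FPKM in 3M and 52.7, 49.5 and 53.7 FPKM in 22M. The 22M values lay close together below J15, and the log2 fold change was -0.59 ± 0.14 (SE, adjusted p = 0.0682). After the correction it was -0.28 (adjusted p = 0.332) and the ages overlapped.

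Ndufb10, a subunit with disulfide-bonded cysteine pairs that faces the intermembrane space, had the lowest log2 fold change of all members and an unstable one. It had 45.8 FPKM in J11, 37.4 in J13 and 15.7 in J15, and 12.6 in 72, 11 in 76 and 25.8 in 78. J15 lay among the 22M values and 78 above J15, so the ages overlapped. The log2 fold change was -0.95 ± 0.467 (SE, adjusted p = 0.243), and it was -0.65 without J11 and -1.41 without J15. As for Ndufa10, 1 of 2 annotated coding transcripts was in the table. The other 7 genes, Ndufb2, Ndufb3, Ndufb4, Ndufb6, Ndufb7, Ndufb9 and Ndufb11, had log2 fold changes from -0.49 to -0.17, and Ndufb3 was the 1 among them with overlapping ages.

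The 2 genes that carry the name without belonging to the complex also had lower means in 22M. Ndufa4 had 188, 183 and 161 FPKM in 3M and 160, 148 and 139 FPKM in 22M. The highest 22M value lay just below J15, and the log2 fold change was -0.25 ± 0.0933 (SE, adjusted p = 0.15). Ndufa4l2, which is known as a hypoxia-inducible gene, was the member with the lowest level, at 5.21, 5.15 and 5.38 FPKM in 3M and 3.77, 2.82 and 3.55 FPKM in 22M. Its ages were well apart, with a log2 fold change of -0.57 ± 0.136 (SE, adjusted p = 0.0691). After the length and GC correction the log2 fold changes were -0.04 for Ndufa4 (adjusted p = 0.799) and -0.23 for Ndufa4l2 (adjusted p = 0.45). The ages of both then overlapped. Without these genes the summed level of the other 36 was 76.4% of 3M.

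**Figure D3:**
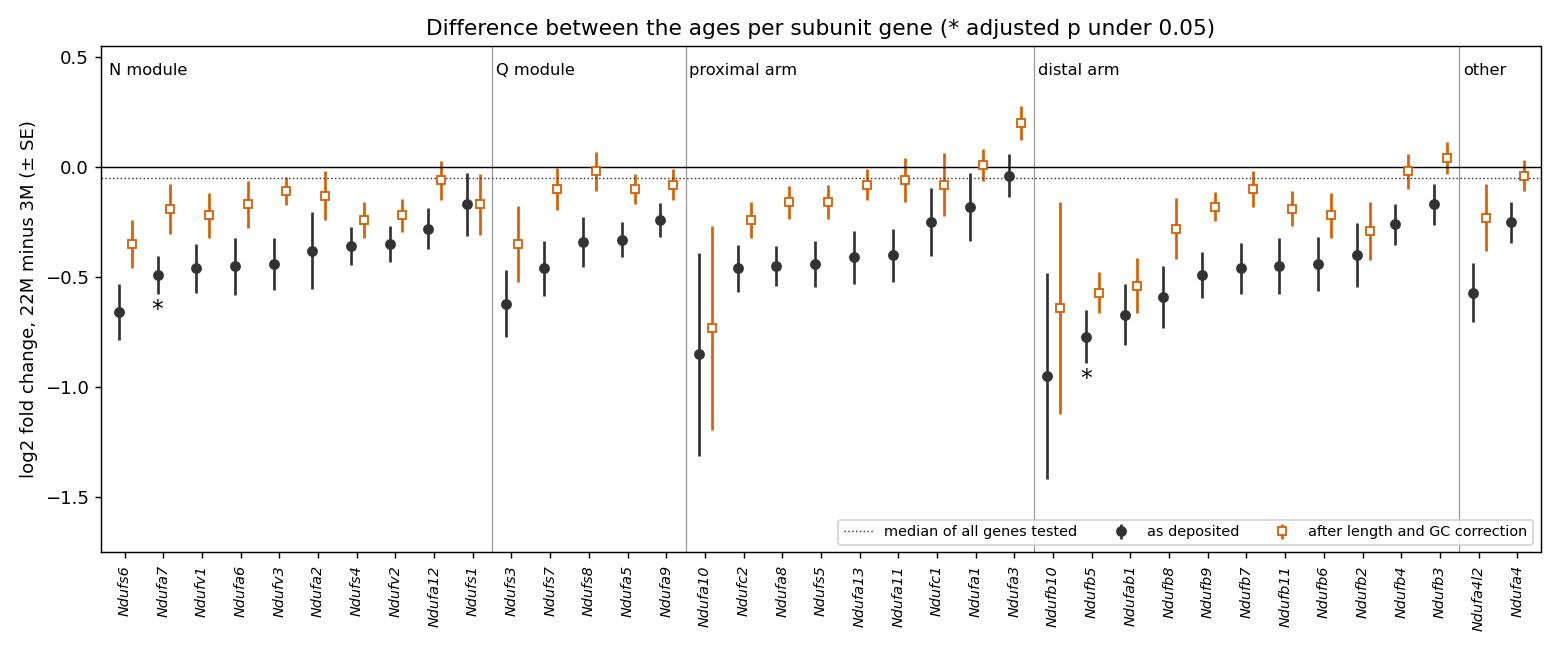
Log2 fold change, 22M minus 3M, of 37 members (error bars: SE of the limma fit on 3 libraries per age), as deposited (black circles) and after the length and GC correction (orange squares). As deposited the points run from -0.95 to -0.04 with Ndufb5 and Ndufa7 past the adjusted p. After the correction the median is -0.17 and no gene passes.

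The order of the libraries was largely shared among the members. J15 was the lowest 3M library in 32 of 38 members, against 37.6% of all genes tested, and J13 was the highest in 25, against 29.6%. In 22M, 78 was the lowest library in 26 members, against 34.8% of all genes, and 72 was the highest in 21, against 25.9%. The median deviation of the members from their own means was 0.26, 0.31 and 0.05 log2 units in J11, J13 and J15 and -0.14, -0.19 and -0.27 in 72, 76 and 78. J15 was thus nearer to 72 than to J13 on this scale, so that the spread within 3M was not small beside the median difference of -0.44 between the ages.

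Over all genes, the difference between the ages moved with transcript length. Complex I subunit genes have short transcripts: the length per gene, averaged over its transcripts by level, was 419 to 2570 nt with a median of 859 nt, against 2922 nt for all genes tested. Among the 13027 genes with a length, the log2 fold change rose with length (Spearman's rho = 0.516, across genes of the same 6 libraries and so a description only). Among the 38 members alone it did not (rho = 0.0167). In the shortest 10% of genes the median log2 fold change of all genes was -0.34 and 43.8% were lower with separate ages. The 27 members in this class had a median of -0.45, and 22 of them were lower with separate ages. In the next length class, with 7 members, the medians were -0.35 for the members and -0.26 for all genes. After the fold changes were corrected for length and GC content in each library, rho over all genes was 0.0151. The median of the members was then -0.17, against -0.06 for all genes. A lower mean was found for 35 of 38 members (58.7% of all genes), 13 had separate ages (18.4%), 0 passed the study's thresholds as lower (2.45%) and 0 fell in limma (0.115%), with 8 lower (12%) and 1 higher (6.71%) at an unadjusted p under 0.05. The 13 included Ndufb5, Ndufa7, Ndufs6 and Ndufab1, and the 1 higher was Ndufa3. The part of length in the members' levels beyond this correction was not tested.

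**Figure D4:**
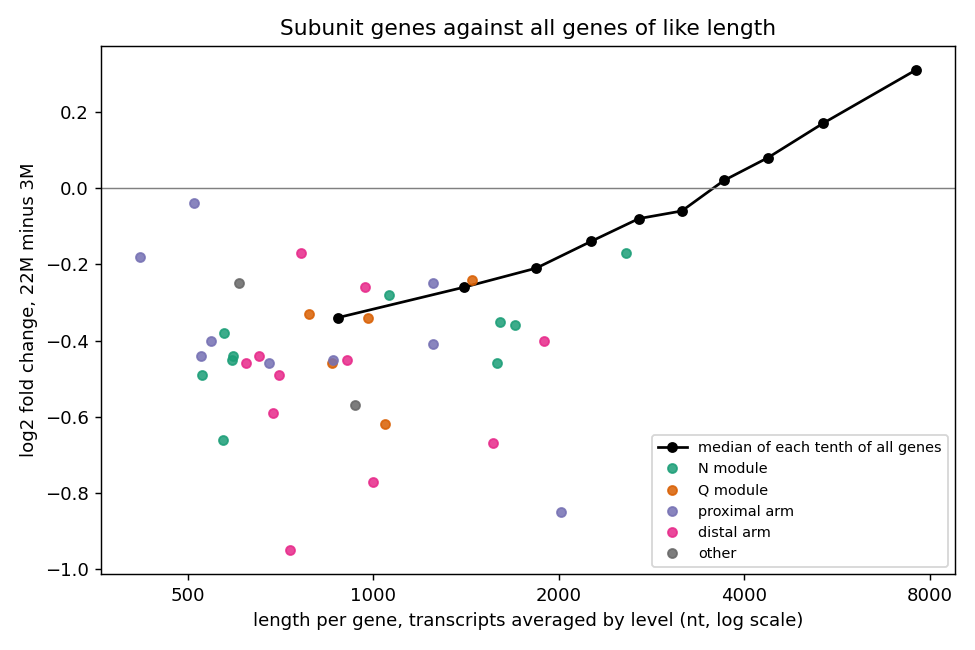
Log2 fold change, 22M minus 3M, against length per gene in nt (log axis, transcripts averaged by level) for 37 members (coloured by part of the complex) and as the median of each of 10 equal classes of all genes by length (black line). All points of members lie below 0, while the line itself runs from -0.34 in the shortest class to 0.31 in the longest.

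Of the transcripts in the table, 71 belonged to members and 69 were tested. Lower values in 22M with separate ages were found for 33 (14.5% of all transcripts tested), 9 passed the study's thresholds as lower (4.54%) and 2 as higher (5.03%), and 0 fell after adjustment in limma (0.0846%), with 32 lower (9.93%) and 2 higher (7.38%) at an unadjusted p under 0.05. For 20 members the table held a single transcript. The main Ndufb5 transcript, Ndufb5-204, had 42.1, 58.3 and 40.0 FPKM in 3M and 22.3, 22.2 and 24.6 FPKM in 22M. It carried 78.9% to 94.6% of the Ndufb5 level in 3M and 66.3% to 86.0% in 22M, and its log2 fold change was -0.99 (adjusted p = 0.0934).

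Ndufv1 had a split between transcripts that the gene sum does not show, and it was singled out after its values were seen. Ndufv1-201 had 22.5, 22.9 and 23.9 FPKM in J11, J13 and J15 but 4.26 in 72, 4.8 in 76 and 15.2 in 78. Ndufv1-202 was listed at 0 in all 3 3M libraries and in 78, and had 12.9 FPKM in 72 and 14.7 in 76. Libraries 72 and 76 thus assigned 75.2% and 74.2% of the gene to a transcript that the other 4 libraries lacked. In limma, neither passed with all libraries (adjusted p = 0.173 and 0.303). Without 78 both did (adjusted p = 0.0134 each), but 78 is the 22M library without this split. That fit therefore cannot tell whether the ages differ. Ndufv1-202 also reached the filter of 0.5 FPKM through 72 and 76 alone. The transcripts differ in where the first coding exon ends. The coding part of that exon is 72 bases in Ndufv1-201 and 45 in Ndufv1-202, and the 27 bases that Ndufv1-202 lacks (chr19:4012551-4012577, minus strand, GRCm38) are 9 whole codons. They are shown in capitals because they set the coding sequences of the transcripts apart.
Ndufv1-201: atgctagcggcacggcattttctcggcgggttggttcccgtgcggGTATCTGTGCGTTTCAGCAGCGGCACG
Ndufv1-202: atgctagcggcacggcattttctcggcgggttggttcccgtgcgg

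**Figure D5:**
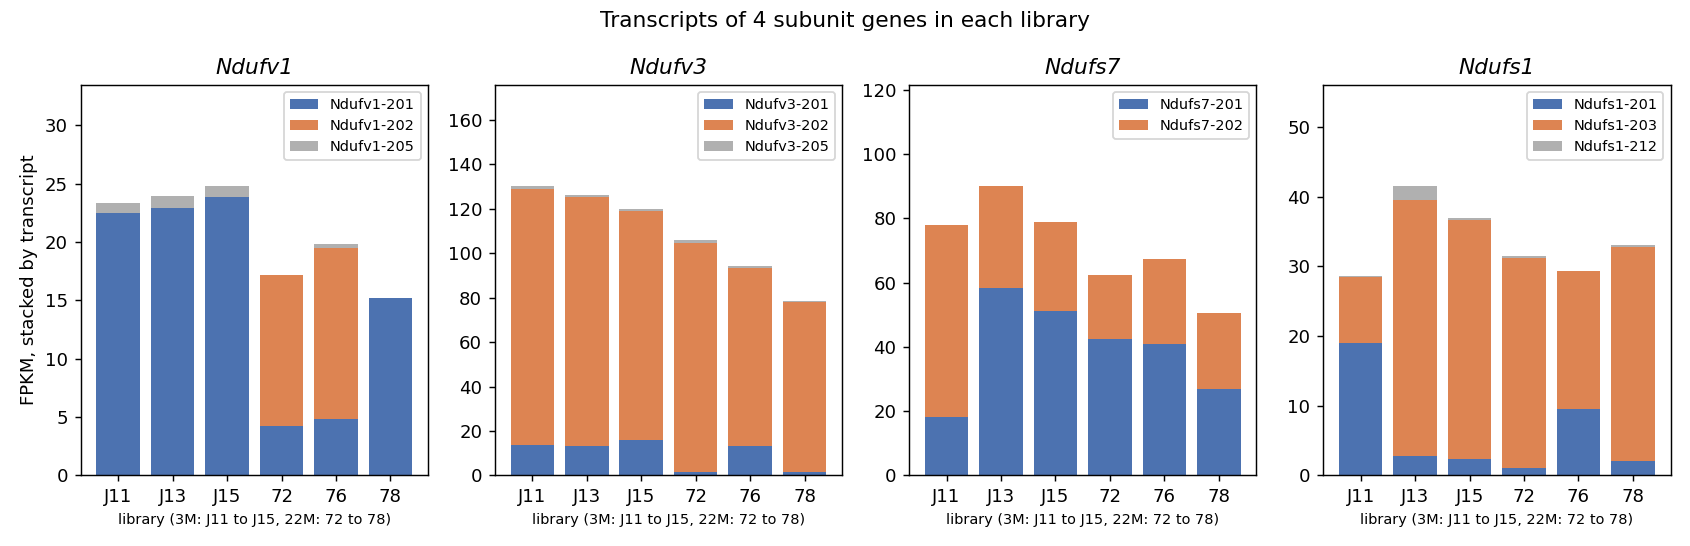
FPKM of the transcripts of Ndufv1, Ndufv3, Ndufs7 and Ndufs1 in each library, stacked (1 bar per library, colours are transcripts). Ndufv1-202 appears in 72 and 76 at 12.9 and 14.7 FPKM and is listed at 0 in the other 4 libraries, and J11 has the transcript shares of Ndufs7 and Ndufs1 reversed against the other 3M libraries.

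Ndufv3, an accessory subunit of the N module, is known in a long and a short form. Ndufv3-201 has an extra coding exon of 1092 bases (chr17:31527310-31528401, plus strand, GRCm38), 364 codons, that Ndufv3-202 skips. The short form was the main one in every library, at 115, 112 and 103 FPKM in 3M and 103, 80.2 and 76.3 FPKM in 22M. The long form had 13.8, 13.3 and 16.1 FPKM in 3M, and 1.5 in 72, 13.3 in 76 and 1.52 in 78. Library 76 was level with the 3M libraries and the other 22M libraries were far below, with an adjusted p of 0.282 in limma. Without 76 the log2 fold change was -2.88 with an adjusted p of 0.0235 in limma. As 76 is the 22M library level with 3M, that fit cannot tell whether the ages differ. The junctions that set the forms apart are given with the last 30 bases of the shared exon in lower case. The first 60 bases of the long form's own exon stand in capitals, and in the short form the last exon follows directly.
Ndufv3-201: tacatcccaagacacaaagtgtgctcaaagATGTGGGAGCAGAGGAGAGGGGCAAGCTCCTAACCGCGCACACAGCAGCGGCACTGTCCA
Ndufv3-202: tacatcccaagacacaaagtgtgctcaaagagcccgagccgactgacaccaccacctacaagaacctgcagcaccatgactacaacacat

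In Ndufa5, a Q module accessory subunit, the form that lacks a coding exon kept an even share. Ndufa5-202 had 10.4, 13.7 and 11.3 FPKM in 3M and 9.24, 8.15 and 8.67 FPKM in 22M. This was 14.6% to 17.9% of the Ndufa5 level in 3M and 13.9% to 16.1% in 22M, with overlapping ages. Ndufa5-201 had 61.3, 62.7 and 55.7 FPKM in 3M and 48.1, 50.6 and 45.8 FPKM in 22M. The exon it alone holds, 117 bases or 39 codons (chr6:24522659-24522775, minus strand, GRCm38), is given whole in capitals, to set this even exon beside the uneven one of Ndufv3.
Ndufa5-201: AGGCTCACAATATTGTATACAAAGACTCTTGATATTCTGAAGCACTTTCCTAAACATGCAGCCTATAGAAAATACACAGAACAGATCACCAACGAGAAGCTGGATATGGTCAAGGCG

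In 4 further members with a pair of abundant transcripts, the split was uneven between libraries. Ndufs7-201 and Ndufs7-202 share their coding sequence. Ndufs7-201 had 18.2 FPKM in J11, 58.4 in J13 and 51.1 in J15, and 42.6, 41.0 and 26.9 in 72, 76 and 78. Ndufs7-202 had 59.6 FPKM in J11, 31.6 in J13 and 27.8 in J15, and 19.7, 26.2 and 23.6 in 22M. J11 thus had the split reversed against the other 3M libraries while its sum did not stand out. Ndufs1-201 and Ndufs1-203, which also share their coding sequence, were again reversed in J11. Ndufs1-201 had 19.0 FPKM in J11, 2.77 in J13 and 2.32 in J15, and 1.05, 9.57 and 2.12 in 72, 76 and 78. Ndufs1-203 had 9.48 FPKM in J11, 36.8 in J13 and 34.3 in J15, and 30.2, 19.8 and 30.7 in 22M.

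Ndufb2 and Ndufa12 showed the split without such a reversal. The 455 nt Ndufb2-202 had 13.3, 13.3 and 8.48 FPKM in 3M and 8.84, 7.79 and 6.23 in 22M. The 4371 nt Ndufb2-205, with the same coding sequence, had 5.66, 6.4 and 5.49 FPKM in 3M and 4.14, 5.85 and 6.19 in 22M. The long transcript therefore took 29.9% to 39.3% of the Ndufb2 level in 3M and 31.9% to 49.8% in 22M. Ndufa12-201 had 120, 110 and 119 FPKM in 3M and 105, 89.0 and 86.0 in 22M. Ndufa12-204, which has 12 more coding bases, had 12.7, 6.21 and 11.8 FPKM in 3M and 7.87, 13.2 and 10.9 in 22M, with overlapping ages.

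The start regions of the members were searched for letters bound by factors that are known to act on respiratory chain genes. RefSeq windows on GRCm38.p6, from 250 bases before to 50 after each start, matched 33 of 38 members, and both strands were read. The start of a window can differ from that of the most abundant transcript. The distance was 538 bases for Ndufa13, 323 for Ndufa5 and 164 for Ndufs4. The NRF1 letters GCGCANGCG were found in 8 of the 33 (24.2%), against 6.25% of all 32851 windows. The YY1 letters AAGATGGCG were found in 5 (15.2%), against 1.4% of all windows. The ETS letters CCGGAAG, read by the GABP complex, were found in 4 (12.1% against 8.86%), the GC box GGGCGG in 15 (45.5% against 35.7%) and the ERR letters TCAAGGTCA in 0 (0.423% of all windows). The windows of Ndufb5 and Ndufa7 held none of these. In Ndufs3 an ETS and a GC box match overlapped, and in Ndufa11 the same bases gave 2 overlapping NRF1 matches. The matches nearest the start are printed, with up to 10 bases on each side and the matched letters in capitals, because they are what these members share in sequence. The NRF1 matches come first.
Ndufa5 (chr6:24527698-24527726, minus strand): tgtgtgagctGCGCAGGCGcaaatctacc
Ndufa6 (chr15:82354249-82354277, minus strand): cgtggcaccgCGCGTGCGCacgctgaagg
Ndufa8 (chr2:36049329-36049357, minus strand): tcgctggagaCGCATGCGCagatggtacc
Ndufa11 (chr17:56717693-56717721, plus strand): ctgcactgcgCGCATGCGCgcacgccttg
Ndufb4 (chr16:37654372-37654400, minus strand): cctcatatccGCGCAGGCGcagatgtgcg
Ndufb10 (chr17:24724407-24724435, minus strand): tcacctttctGCGCAGGCGtagaggtccc
Ndufs5 (chr4:123718266-123718294, minus strand): gctgcttgctGCGCAGGCGcagacccgct
Ndufs6 (chr13:73328479-73328507, minus strand): gactgctgtgCGCCTGCGCcggcacttgg

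The YY1 matches all lay within 35 bases after the annotated start.
Ndufa9 (chr6:126849097-126849125, minus strand): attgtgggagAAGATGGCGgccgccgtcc
Ndufc1 (chr3:51408915-51408943, minus strand): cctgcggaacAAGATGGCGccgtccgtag
Ndufs4 (chr13:114388045-114388069, minus strand): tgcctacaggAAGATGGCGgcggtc
Ndufs6 (chr13:73328433-73328459, minus strand): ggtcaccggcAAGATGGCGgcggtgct
Ndufs7 (chr10:80249463-80249491, plus strand): ggccgaggccAAGATGGCGgcgctggcgg

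These matches describe letters only. Ndufs6 held both an NRF1 and a YY1 match, and Ndufb4 held 3 NRF1 matches at positions -191, -79 and -22. The log2 fold changes of these genes were -0.66 and -0.26.

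The genes of the factors themselves gave no passing change. Of 12 regulator genes, 0 passed the adjusted test in limma, with 1 lower and 1 higher at an unadjusted p under 0.05, against 16.4% and 10.6% of all genes. Their median log2 fold change was 0.27, and 0.04 after the length and GC correction. Higher values in 22M with separate ages were found for 5 of the 12, Gabpa, Gabpb2, Yy1, Ppargc1b and Pprc1 (13.3% of all genes), and lower ones for Esrra alone. The sign of Yy1 turned with the correction, from 0.12 to -0.14 on the log2 scale. Esrra, which encodes the estrogen-related receptor alpha, had 13.9, 15.7 and 15.4 FPKM in 3M and 11.3, 12.1 and 11.4 FPKM in 22M (log2 fold change -0.35, adjusted p = 0.08). Gabpa, which encodes the DNA-binding subunit of GABP, had 5.95, 4.82 and 5.36 FPKM in 3M and 6.59, 7.35 and 7.73 FPKM in 22M (0.4, adjusted p = 0.11).

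The mitochondrially encoded part of the same enzyme had overlapping ages, and its difference from the nuclear part was not tested. The 7 mt-Nd genes had a summed FPKM of 29124, 30739 and 31071 in J11, J13 and J15 and of 37565, 26634 and 25660 in 72, 76 and 78. Library 72 stood at 124% of the 3M mean, above every 3M library, while 76 and 78 stood at 87.9% and 84.7%, below every 3M library. The median log2 fold change was -0.04, and 0.16 after the length and GC correction, and 0 of 7 passed the test in limma at either p (0 under an unadjusted 0.05). The libraries were made from polyadenylated RNA, and mitochondrial mRNAs carry short tails.

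The 21 genes listed as assembly factors had a median log2 fold change of -0.33, and -0.15 after the length and GC correction. None passed the adjusted test in limma, while 10 had a lower level and 0 a higher one at an unadjusted p under 0.05 (16.4% and 10.6% of all genes). Ndufaf8 had 15.1, 14.9 and 10.6 FPKM in 3M and 6.47, 7.87 and 4.86 FPKM in 22M, with separate ages and a log2 fold change of -1.03 ± 0.209 (SE, adjusted p = 0.0558). Of 44 genes of complexes II to V, 42 had a lower mean (56% of all genes), 25 had separate ages (21.1%) and 2 fell (1.21%). Those 2 were Uqcrfs1 (-0.5, adjusted p = 0.0479), the iron-sulfur subunit of complex III, and Atp5d (-0.63, adjusted p = 0.05 as rounded), a subunit of the ATP synthase. After the length and GC correction, 31 of the 44 genes had a lower mean (58.7% of all genes) and 13 had separate ages (18.4%). Their median was -0.32, against -0.44 in the members, and -0.09 after the length and GC correction, against -0.17. Their summed level in 22M was 83.0% of 3M, against 76.8%. These differences between complex I and the other complexes were not tested.

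Other lists of genes moved with age in these libraries. Among oligodendrocyte markers, 8 of 8 had a lower mean (56% of all genes) and 5 fell (1.21%). Their summed levels were 1160 to 1234 FPKM in 3M and 693 to 896 FPKM in 22M. Of 8 thalamus markers all had a lower mean and 3 fell, beside the same shares of all genes. Their sums were 45.6 to 89.9 FPKM in 3M and 22.1 to 29.4 FPKM in 22M. All 5 erythroid markers rose (0.92% of all genes), with sums of 590 to 633 FPKM in 3M and 1329 to 2046 FPKM in 22M. The 8 excitatory neuron markers of the labelled tissue had sums of 1569 to 1877 FPKM in 3M and 1636 to 1820 FPKM in 22M. Of these excitatory markers, 0 passed the adjusted test in limma, and 2 were higher at an unadjusted p under 0.05 (10.6% of all genes). J11 stood apart by its 7 striatum markers, which summed to 549 FPKM against 25.7 to 41.2 FPKM in the other libraries, and 78 by its 6 choroid plexus markers, which summed to 134 FPKM against 1156 to 2817. No defining marker of these lists was at 0 in every library. Their part in the subunit levels was not tested. Without J11 and 78 together, an alternative chosen after seeing the data, 33 members had separate ages (30.4% of all genes). The median log2 fold change of the members was then -0.33. In that fit 0 members fell in limma (0.0153% of all genes), with 19 lower at an unadjusted p under 0.05 (9.75% of all genes).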

How the data were processed

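Hippocampal mRNA of 6 libraries, 3 per age, was analysed. The authors enriched mRNA on oligo beads, used a stranded kit and deposited 25409 transcripts in FPKM. The submitters' processing notes name HISAT2 and GRCm38 (mm10); which quantifier was used is not given in the sources used here. As FPKM carry no counts, depth is unknown and counting error could not be given.

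FPKM were summed per gene. In R 4.3.3, limma 3.58.1 (two-sided, trend, log2(FPKM + 0.5), Benjamini-Hochberg, no covariates) was fitted to the 13041 genes averaging 0.5 FPKM or more, and to transcripts likewise. Fold changes on this scale understate low genes. "Rose" and "fell" mean an adjusted p under 0.05. "Separate ages" means that the ranges did not overlap. Lengths, GC content and coordinates came from GENCODE vM21 on GRCm38, where 99.7% of transcript identifiers were found. The length and GC correction fitted natural splines (4 degrees of freedom each) in each library. The fits were tested on simulated data.

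Values per library are given for members past a threshold, the 2 lowest and 2 highest fold changes, the highest mean, the core subunits, Ndufa4, Ndufa4l2 and members with 2 or more transcripts of at least 5 FPKM. Of the 38 members, 1 is counted in all totals but not reported singly here. Members and lists were chosen with earlier results of these data known. Alternatives were other pseudocounts, filters, scalings and variance models, array weights, the correction, the highest transcript and leaving out libraries.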

Additional observations from a re-analysis of the deposited data

How the results depend on the processing

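With 3 libraries per age and unknown depth, single calls near the threshold were unstable. Under every alternative run, 35 to 38 of the 38 members had a lower mean in 22M. The share of all genes was 56% with all libraries and 58.7% after the length and GC correction. Because the members largely shared the order of the libraries, these are not 38 separate results. The count of members that fell was 2 with all libraries (1.21% of all genes). It was 1 with a pseudocount of 0.1 (1%) or quantile normalization (0.744%), and 16 with array weights (5.67%). It was 0 in limma without trend, with each gene's own variance and after the length and GC correction. The count was also 0 with the highest transcript in place of the gene sum and without J11 and 78 together. In these settings at most 0.115% of all genes fell. With 1 library left out the count ranged from 0 to 11 (0.0153% to 2.8% of all genes). In the fits that gave 0, between 8 and 29 members were lower at an unadjusted p under 0.05, against 9.75% to 15.4% of all genes. The count at the study's thresholds was 5 (4.22% of all genes). It was 3 with median-of-ratios scaling (3.31%), 2 with quantile normalization (3.36%) and 0 after the correction (2.45%). With 1 library left out it ran from 2 to 7 (3.49% to 6.06%), the 2 being without J13. Members with separate ages numbered 31 (21.1% of all genes), and 13 after the correction (18.4%). The median log2 fold change was -0.44, -0.28 with quantile normalization and -0.17 after the correction. Of 69 member transcripts, 0 fell with all libraries (0.0846% of all transcripts). Leaving out 1 library gave a range of 0 to 1, with Ndufv3-201 falling without 76 (0.0465%) and Ndufv1-201 without 78 (0.148%). In each case the library left out was the 22M library nearest to the 3M values of that transcript. Ndufb5 kept its call in 8 of 18 alternatives and Ndufa7 in 6. The causes of these shifts were not tested. The other alternatives kept each value within 1.5 times or within the spread of the libraries. No paired analysis applied, because the 3M and 22M libraries came from separate age groups of mice.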
